A study of Mus musculus with 2 samples.

Results

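The 9 miRNA hairpins of Mir106b-25 and Mir106a-363, a pair of clusters related by descent, were followed in the mouse adrenal gland, out of 2202 miRNA genes in the count tables. The members were chosen by gene symbol: Mir106b, Mir93 and Mir25 for the first cluster, and Mir106a, Mir18b, Mir20b, Mir19b-2, Mir92-2 and Mir363 for the second. The choice rule uses no measured value, though earlier results of these data were known when it was made. The glands came from B6CASTF1/J females, the F1 hybrid of C57BL/6J and CAST/EiJ mice, at 14 days of age, with no treatment named in the labels. The series is 1 group of 2 libraries, labelled biological replicates 1 and 2, so it holds no contrast between conditions. The label of replicate 1 names 3 females and that of replicate 2 a single numbered female, and both carry the same donor identifier. The 2 libraries therefore show how far levels differ between samples of this tissue, and no p-value is given.

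These hairpins belong to the miR-17 family of clusters, which arose by duplication of an ancestral miRNA transcript. Mature miRNAs guide Argonaute proteins to messenger RNAs, mainly through the seed near their 5′ end, so hairpins with the same seed share most predicted targets. The Mir106b-25 hairpins are transcribed with their host Mcm7, which encodes a subunit of the replicative DNA helicase and is induced by E2F factors at entry into S phase. Known targets of miR-106b and miR-93 include the cell-cycle inhibitor Cdkn1a, and known targets of miR-25 include the pro-apoptotic gene Bcl2l11. Mir106a-363 lies on the X chromosome and is known as a site of retroviral insertion in mouse lymphomas. The remaining cluster of the family, Mir17hg, is the MYC-induced locus that gives miR-17 to miR-92a, and its values are set beside those of the members.

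The mature sequences show how the members fall into groups by seed and which of them have copies elsewhere. They are the RefSeq records on build GRCm38.p6, where all 9 members matched, written 5′ to 3′ with the seed, bases 2 to 8, in capitals. The miR-17 seed AAAGUGC is held by 2 members of each cluster, all on the 5′ arm.
miR-106b-5p (Mir106b-25): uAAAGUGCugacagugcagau
miR-93-5p (Mir106b-25): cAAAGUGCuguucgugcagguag
miR-106a-5p (Mir106a-363): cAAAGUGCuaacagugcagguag
miR-20b-5p (Mir106a-363): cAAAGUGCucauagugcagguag
The miR-25 seed AUUGCAC is held by miR-25 and by both distal hairpins of the X-linked cluster, all on the 3′ arm.
miR-25-3p (Mir106b-25): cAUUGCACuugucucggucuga
miR-92a-3p (Mir92-2, Mir106a-363): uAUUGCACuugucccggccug
miR-363-3p (Mir106a-363): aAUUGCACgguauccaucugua
The other 2 seeds have a single hairpin each, in the X-linked cluster.
miR-18b-5p (Mir106a-363): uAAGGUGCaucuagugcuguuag
miR-19b-3p (Mir19b-2, Mir106a-363): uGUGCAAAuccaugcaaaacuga

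Outside the seed the paralogs with the miR-17 seed or the miR-18 seed differ by few bases. Compared position by position over 23 bases, miR-106a-5p differs from miR-17-5p of Mir17hg at 1 base and from miR-20b-5p at 2 bases. The miR-20b-5p sequence differs from miR-20a-5p at 2 bases, and miR-93-5p from either X-linked relative at 4 (miR-106a-5p) or 3 (miR-20b-5p). The miR-18b-5p sequence differs from miR-18a-5p at 2 bases. Among the miR-25 seed members, miR-25-3p differs from miR-92a-3p at 3 of 21 compared bases. The miR-363-3p sequence is less alike, and differs from miR-25-3p at 13 of 22 bases and from miR-92a-3p at 11 of 21.

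For 2 members of the X-linked cluster the main mature sequence has an exact copy at Mir17hg. The Mir19b-2 hairpin shares a run of 25 bases with Mir19b-1, and the Mir92-2 hairpin a run of 22 bases with Mir92-1, set in capitals below.
Mir19b-2 hairpin: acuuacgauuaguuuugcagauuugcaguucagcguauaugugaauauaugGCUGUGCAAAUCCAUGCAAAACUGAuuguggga
Mir19b-1 hairpin: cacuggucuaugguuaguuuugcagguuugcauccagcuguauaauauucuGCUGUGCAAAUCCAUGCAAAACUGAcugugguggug
Mir92-2 hairpin: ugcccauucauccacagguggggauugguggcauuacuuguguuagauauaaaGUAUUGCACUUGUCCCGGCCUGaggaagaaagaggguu
Mir92-1 hairpin: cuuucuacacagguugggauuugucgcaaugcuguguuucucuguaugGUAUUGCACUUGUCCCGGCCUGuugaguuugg
A read that lies wholly within such a run maps to both hairpins. The authors' tables list such multimapping reads apart from the genes (3002371 and 2795730 reads in replicates 1 and 2). The counts of Mir19b-2 and Mir92-2, and of Mir19b-1 and Mir92-1 at Mir17hg, are therefore incomplete. Each run holds the whole main mature sequence, so reads of exactly that sequence are among those left out. In the other 7 members the longest run shared with any annotated hairpin is 12 to 17 bases.

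Both clusters are compact. On build mm10 (GENCODE M21), the Mir106b-25 hairpins lie on the minus strand of chromosome 5 inside Mcm7, which is on the same strand. Mir106b (ENSMUSG00000065514.1) spans 138165737 to 138165818, Mir93 (ENSMUSG00000065527.1) 138165523 to 138165610, and Mir25 (ENSMUSG00000065394.1) 138165321 to 138165404. Mir106b overlaps no annotated exon of Mcm7 and is intronic, while Mir93 and Mir25 also overlap the exon of a retained-intron transcript. The X-linked hairpins lie on the minus strand of chromosome X, from Mir106a (ENSMUSG00000065456.1, 52742503 to 52742567) through Mir18b (52742331 to 52742413), Mir20b (52742113 to 52742192), Mir19b-2 (52741983 to 52742066) and Mir92-2 (52741838 to 52741928) to Mir363 (52741693 to 52741767). Mir106a overlaps the last 5 bases of the noncoding gene Kis2, and no other annotated gene covers the rest.

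Replicate 1 held 3797107 counts on miRNA genes and replicate 2 held 5034257, and levels are given as CPM, counts scaled to a common total of these. Each read stands for a whole short RNA, so counts were not divided by hairpin length, and levels of different hairpins are compared as read counts. Whether hairpins of different sequence were captured equally was not tested, so ratios between hairpins are ratios of counts. Of the 9 members, 7 were detected, meaning at least 10 counts in each library, as were 358 of all 2202 genes. For a hairpin with 0 counts the upper limit, taken as 3 counts, was 0.790 CPM in replicate 1 and 0.596 CPM in replicate 2. Intervals are 95% intervals (Wilson for shares and CPM, exact Clopper-Pearson for ratios, and a normal approximation on the log2 scale for the change of a ratio between libraries) and cover counting error only, since the reads carry no molecular identifiers. The libraries also differed in markers of other tissues: the 4 hepatocyte markers (3 detected, led by Mir122) summed to 3003 CPM in replicate 1 and 215691 CPM in replicate 2, and the 9 striated muscle markers (2 detected, with Mir1a-1, Mir133a-1 and Mir133a-2 at 0 in both) to 31.3 and 1568 CPM. The 3 erythroid markers, all detected, summed to 2236 CPM in replicate 1 and 560.0 CPM in replicate 2, and the 4 leukocyte markers, all detected, to 2160 and 1070 CPM. In the leukocyte list Mir142 stood at 1474 CPM in replicate 1 and 402 CPM in replicate 2, while Mir223 (114.8 and 114.6 CPM), Mir150 (320 and 363 CPM) and Mir155 (251 and 190 CPM) differed less. The 5 epithelial markers, all detected, summed to 113.0 CPM in replicate 1 and 350.0 CPM in replicate 2, with Mir200a, Mir200b and Mir429 lower and Mir200c and Mir141 higher in replicate 1. Mir126a, the endothelial marker, stood at 142267 CPM in replicate 1 and 140629 CPM in replicate 2. After the TMM scaling described below, the log2 ratio of Mir126a, replicate 1 over replicate 2, was -0.41. Mir375 and its fellow neuroendocrine markers (4 of 4 detected) stood at 38998 and 20169 CPM, and the 4 genes linked to ACTH in rat adrenal, all detected, at 1712 and 1591 CPM. Within the ACTH list, Mir132 (789 and 430 CPM) and Mir212 (41.1 and 18.3 CPM) were higher in replicate 1. Mir182 (796 and 1003 CPM) and Mir183 (85.1 and 139.6 CPM) were lower there. Whether other cell types supplied part of any count below was not tested, and in whole tissue fewer cells of a type and less RNA per cell cannot be told apart.

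The Mcm7-hosted cluster was well expressed in the gland and the X-linked cluster was scarce. Summed over its 3 hairpins, Mir106b-25 had 29817 counts in replicate 1 and 17467 in replicate 2, or 0.785% (95% interval 0.776 to 0.794) and 0.347% (0.342 to 0.352) of all miRNA counts. The 6 hairpins of Mir106a-363 summed to 1120 counts in replicate 1 and 446 in replicate 2, or 0.0295% (0.0278 to 0.0313) and 0.00886% (0.00807 to 0.00972). The mean level was 5661 ± 3099 CPM for Mir106b-25 and 192 ± 146 CPM for Mir106a-363 (SD, n = 2). With Mir122, which took 21.5% of replicate 2, left out of the totals, these became 6146 ± 2445 and 204 ± 129 CPM.

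Within a library the ratio of the clusters does not depend on depth or scaling. Mir106b-25 had 26.6 times the counts of Mir106a-363 in replicate 1 (95% interval 25.1 to 28.3) and 39.2 times in replicate 2 (35.6 to 43.1). On the log2 scale the ratio was 5.01 ± 0.39 (SD, n = 2), so the gap between the clusters was many times the spread between the libraries. With Mir19b-2 and Mir92-2 left out it was 5.51 ± 0.75. The gap was not equal at each pair of paralogs: Mir106b over Mir106a stood at 18.9 in replicate 1 (17.0 to 20.9) and 45.5 in replicate 2 (37.0 to 56.5), Mir93 over Mir20b at 45.2 (41.1 to 49.7) and 111.9 (92.3 to 137.1), and Mir25 over Mir92-2 at 12.1 (10.4 to 14.2) and 8.83 (7.57 to 10.4). Mir25 over Mir363, the X-linked hairpin of the same seed with a mature sequence of its own, was 23.5 in both libraries (19.0 to 29.5 in replicate 1 and 18.4 to 30.4 in replicate 2).

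**Figure D1:**
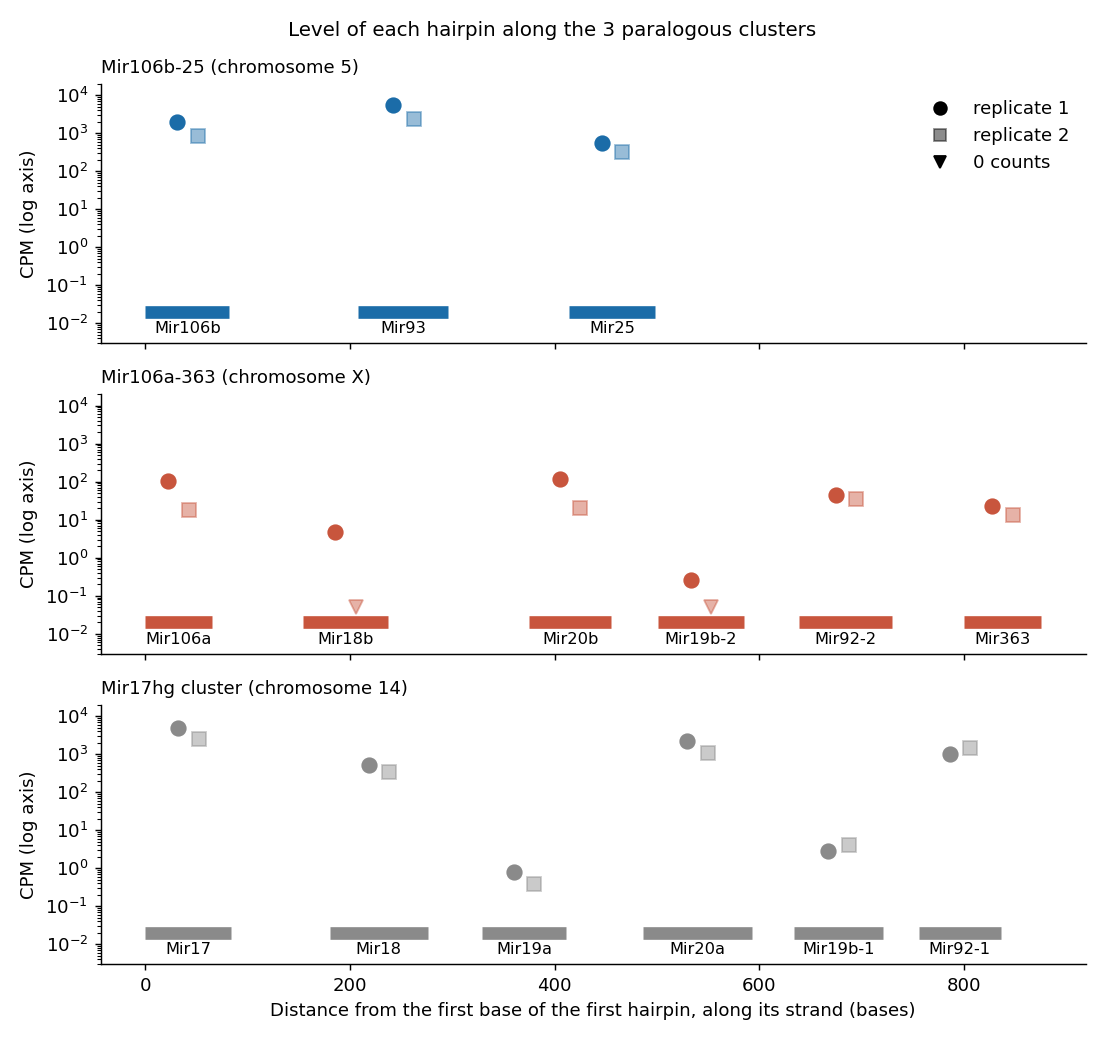
Level of each hairpin in CPM (vertical log axis) against the distance in bases from the first base of the first hairpin (horizontal axis) for Mir106b-25, Mir106a-363 and the Mir17hg cluster, with circles for replicate 1, squares for replicate 2, triangles for 0 counts and bars for the hairpins. The 3 hairpins of Mir106b-25 stand at 318 CPM or more in each library, while those of Mir106a-363 stand at 119 CPM or less.

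In the Mcm7-hosted cluster Mir93 led. Mir93 had 20368 counts in replicate 1 and 11640 in replicate 2, a mean of 3838 ± 2158 CPM (SD, n = 2), and ranked 38 among all genes by mean CPM. Mir106b, the first hairpin, had 7378 and 4228 counts (1391 ± 780 CPM, rank 64), and Mir25, the last and the one with the apoptosis-linked seed, had 2071 and 1599 counts (432 ± 161 CPM, rank 114). The order Mir93, Mir106b, Mir25 was the same in both libraries, with gaps beyond counting error at each step. Mir93 held 68.3% of the cluster in replicate 1 (67.8 to 68.8) and 66.6% in replicate 2 (65.9 to 67.3), Mir106b 24.7% (24.3 to 25.2) and 24.2% (23.6 to 24.8), and Mir25 6.95% (6.66 to 7.24) and 9.15% (8.74 to 9.59). Mir93 over Mir106b was 2.76 in replicate 1 (2.69 to 2.84) and 2.75 in replicate 2 (2.66 to 2.85), intervals that overlap. Mir93 over Mir25 was 9.83 (9.40 to 10.3) in replicate 1 and 7.28 (6.91 to 7.67) in replicate 2, intervals that do not.

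In the X-linked cluster Mir20b and Mir106a had like levels, and both were lower in replicate 2. Mir20b had 451 counts in replicate 1 and 104 in replicate 2 (118.8 and 20.7 CPM), and Mir106a had 391 and 93 (103.0 and 18.5 CPM). Mir20b over Mir106a was 1.15 in replicate 1 (1.01 to 1.32) and 1.12 in replicate 2 (0.837 to 1.50), so in replicate 2 these neighbours in the order of levels were not separated by counting error. Mir92-2 had 171 and 181 counts (45.0 and 36.0 CPM) and Mir363 had 88 and 68 (23.2 and 13.5 CPM). Mir92-2 thus stood behind Mir20b and Mir106a in replicate 1 and ahead of them in replicate 2, on a count that leaves out reads shared with Mir92-1.

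The remaining X-linked hairpins were at or near the limit. Mir18b had 18 counts in replicate 1 and 0 in replicate 2, where 0 of 5034257 allows up to 0.596 CPM. Against a floor of 3 counts in replicate 2 and after TMM scaling (below), the 18 counts of Mir18b were 5.91-fold higher in replicate 1. This figure leaves out the counting error of the 18 counts, so it is no lower limit. Mir19b-2 had 1 count in replicate 1 and 0 in replicate 2. Since its mature sequence also lies in Mir19b-1, which itself had 11 and 20 counts, these values do not show that miR-19b is scarce in the gland.

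The make-up of the clusters differed between the libraries to unequal degrees. In Mir106b-25 the miR-17 seed hairpins held 93.1% of the counts in replicate 1 and 90.8% in replicate 2. In Mir106a-363 they held 75.2% in replicate 1 and 44.2% in replicate 2, and the miR-25 seed hairpins Mir92-2 and Mir363 held 23.1% and 55.8%. These shares use the count of Mir92-2 without the reads shared with Mir92-1.

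**Figure D2:**
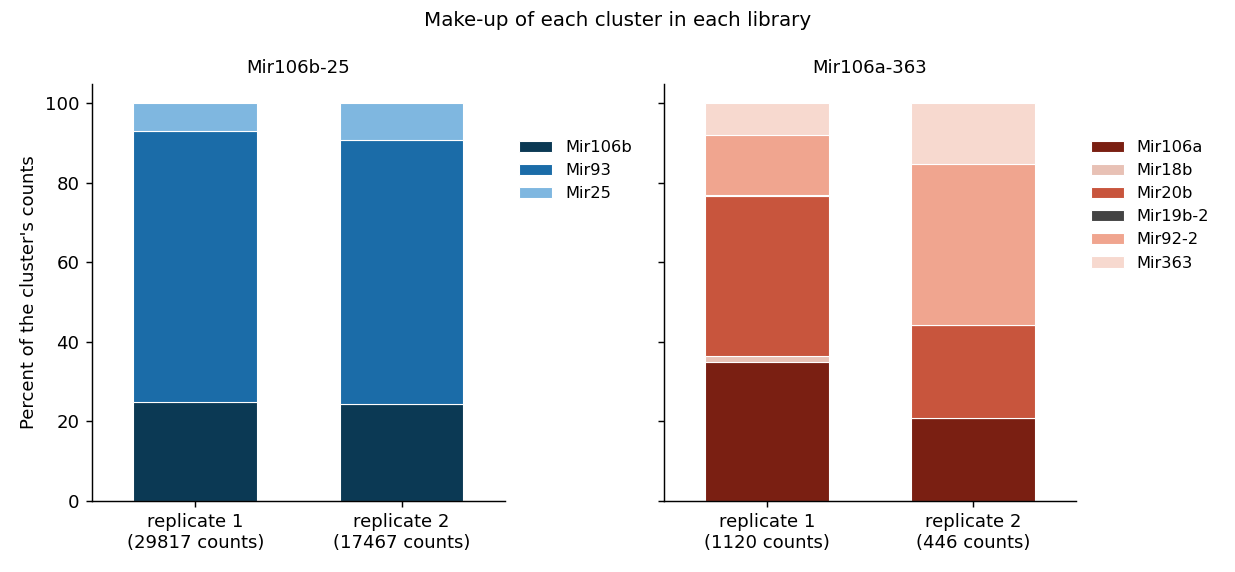
Share of each cluster's counts held by each hairpin (vertical axis, percent, bars stacked to the cluster's total) in replicates 1 and 2, for Mir106b-25 on the left and Mir106a-363 on the right, with each cluster's total count under its bar. Mir93 makes up 68.3% and 66.6% of Mir106b-25, while in Mir106a-363 the share of Mir106a and Mir20b is 75.2% in replicate 1 and 44.2% in replicate 2.

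To compare the libraries, log2 ratios of replicate 1 over replicate 2 were taken after TMM scaling, a method that sets library factors (1.16 and 0.862) from the bulk of the genes. Summed, Mir106b-25 stood at 0.75 (95% counting interval 0.72 to 0.78) and Mir106a-363 at 1.30 (1.15 to 1.47), folds of 1.68 and 2.47 higher in replicate 1. The difference between the clusters, Mir106b-25 minus Mir106a-363, was -0.56 (-0.72 to -0.40), in which the scaling cancels, and -1.07 with Mir19b-2 and Mir92-2 left out. With 1 library on each side, this describes these libraries and has no replicate check.

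Member by member, Mir106a and Mir20b stood apart. Their log2 ratios were 2.04 (1.72 to 2.39) and 2.09 (1.78 to 2.42), folds of 4.12 and 4.25. Those of Mir106b and Mir93 were 0.78 (0.73 to 0.84) and 0.78 (0.75 to 0.82), and that of Mir25 was 0.35 (0.26 to 0.45). For Mir363 the log2 ratio was 0.35 with an interval (-0.12 to 0.83) that includes 0, as did the interval of Mir92-2 (-0.10, -0.41 to 0.20), whose sign turns positive, to 0.33, when library totals replace TMM scaling. Of the 7 detected members, 2 were past 2-fold and higher in replicate 1 and 0 were past 2-fold and lower, against 8.66% and 9.22% of the 358 detected genes. Among genes with a mean of 50 to under 1000 counts, the range that holds Mir106a and Mir20b, 10.4% were past 2-fold and higher in replicate 1 and 9.72% past 2-fold and lower. When scaled by library totals alone, 4 members were past 2-fold and higher in replicate 1, and all detected genes split into 79 higher and 19 lower, against 31 and 33 with TMM. The median log2 ratio after TMM scaling was 0.78 over the 7 detected members and 0.06 over all detected genes. Of the 3 erythroid markers, Mir451a was past 2-fold and higher in replicate 1 at 2.03, with Mir144 at 0.37 and Mir486 at 0.12. Of the 4 leukocyte markers, Mir142 was past 2-fold and higher at 1.44, with Mir155 at -0.03, Mir223 at -0.43 and Mir150 at -0.61. Whether such cells had a part in the members' differences was not tested.

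In each of the 3 loci the miR-17 seed hairpins were higher in replicate 1 relative to the miR-25 seed hairpins, a split looked at after the values had been seen. Ratios within a locus need no scaling. The counts of Mir92-1 and Mir92-2, however, leave out the reads that these hairpins share. The ratios of Mir17hg and Mir106a-363 below therefore rest on incomplete counts of the miR-25 seed, while that of Mir106b-25 does not. Reads of exactly the miR-92a-3p sequence are among those missing, so these 2 ratios may not follow the level of mature miR-92a. In Mir106b-25 the miR-17 seed hairpins had 13.4 times the counts of Mir25 in replicate 1 (12.8 to 14.0) and 9.92 times in replicate 2 (9.43 to 10.5), a 1.35-fold change of the ratio (1.26 to 1.45). In Mir106a-363 Mir106a and Mir20b had 3.25 times the counts of Mir92-2 and Mir363 in replicate 1 (2.83 to 3.75) and 0.791 times in replicate 2 (0.653 to 0.958), a 4.10-fold change (3.25 to 5.18). Mir17hg had Mir17 and Mir20a at 7.25 times Mir92-1 in replicate 1 (7.01 to 7.51) and 2.48 times in replicate 2 (2.42 to 2.55), a 2.92-fold change (2.79 to 3.05). The seed groups of the members also differ in arm, 5′ against 3′, and their G and C content spans 42.9% to 52.2% for the miR-17 seed and 40.9% to 57.1% for the miR-25 seed. The part of these features in the change was not tested. Outside the 3 loci the miR-25 seed is carried by Mir32, with 384 and 234 counts and a log2 ratio of 0.69, by Mir92b, with 79 and 169 counts and a log2 ratio of -1.12, and by Mir367, with 0 counts in both libraries, so the genes with this seed did not share 1 direction.

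**Figure D3:**
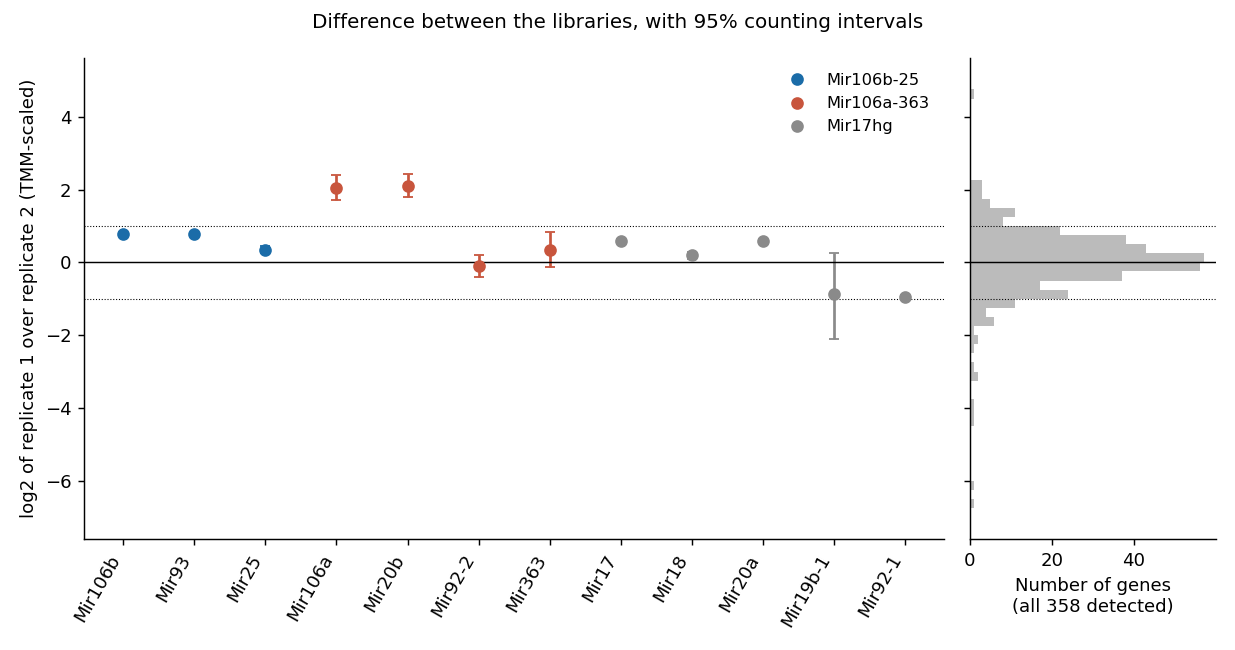
Log2 ratio of replicate 1 over replicate 2 after TMM scaling (vertical axis) for the detected hairpins of Mir106b-25, Mir106a-363 and Mir17hg, with 95% counting intervals, beside a histogram of all 358 detected genes (horizontal axis, number of genes). Dotted lines mark a 2-fold difference. Mir106a and Mir20b lie at 2.04 and 2.09, above every other hairpin shown.

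Set against the counts of Mir17hg, those of Mir106b-25 were of like size and those of Mir106a-363 far below. The Mir17hg sum leaves out the multimapping reads of Mir19b-1 and Mir92-1, and how many these are is not known. The sum of Mir106a-363 is incomplete in the same way, while no hairpin of Mir106b-25 has such a copy. The 6 hairpins of Mir17hg summed to 32894 counts in replicate 1 and 26616 in replicate 2. Mir106b-25 stood at 0.906 times this sum in replicate 1 (0.892 to 0.921) and 0.656 times in replicate 2 (0.644 to 0.669). Mir106a-363 stood at 3.40% of it in replicate 1 (3.21 to 3.61) and 1.68% in replicate 2 (1.52 to 1.84). Between closest relatives the percentages were also low, but they differed from pair to pair. Mir106a counts were 2.07% of Mir17 counts in replicate 1 (1.87 to 2.29) and 0.755% in replicate 2 (0.609 to 0.926). Mir20b counts were 5.45% of Mir20a counts in replicate 1 (4.94 to 5.99) and 1.91% in replicate 2 (1.56 to 2.32). Mir18b came to 0.920% of Mir18 in replicate 1, from 18 against 1957 counts, and to 0 of 1684 in replicate 2. Mir92-2 stood at 4.56% of Mir92-1 in replicate 1 (3.89 to 5.32) and 2.53% in replicate 2 (2.17 to 2.93). Each of the X-linked percentages was thus lower in replicate 2, beyond counting error where an interval is given.

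By seed, the Mcm7-hosted and Mir17hg clusters supplied most of the counts at the 3 loci. Of the counts of miR-17 seed hairpins at the 3 loci, Mir106b-25 gave 49.8% in replicate 1 (49.3 to 50.2) and 46.9% in replicate 2 (46.4 to 47.4), Mir106a-363 gave 1.51% (1.41 to 1.61) and 0.582% (0.507 to 0.669), and Mir17hg gave 48.7% and 52.5%. Among annotated hairpins elsewhere, this seed is listed for Mir6383, which had 0 counts in both libraries. Of the counts of miR-25 seed hairpins at the 3 loci, Mir106b-25 gave 34.1% (32.9 to 35.3) and 17.8% (17.0 to 18.6), Mir106a-363 gave 4.26% (3.78 to 4.80) and 2.77% (2.45 to 3.13), and Mir17hg gave 61.7% and 79.5%. The mean share of Mir106b and Mir93 in their group was 48.3% ± 2.01, and that of Mir25 in its group 25.9% ± 11.5 (SD, n = 2). Outside the 3 loci, Mir32 and Mir92b had more counts of the miR-25 seed together than Mir106a-363, whose hairpins had 259 and 249. Reads shared by Mir92-1 and Mir92-2 are missing from the group of Mir25.

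**Figure D4:**
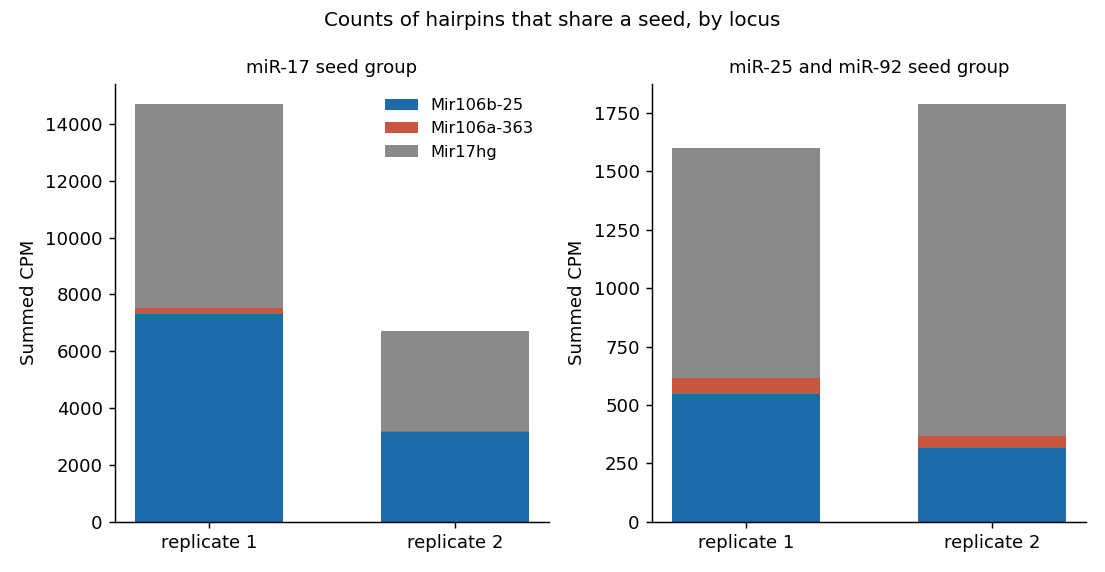
Summed level in CPM (vertical axis) of the hairpins that share the miR-17 seed (left) and the miR-25 and miR-92 seed (right) in replicates 1 and 2, stacked by locus. Mir106b-25 gives 49.8% and 46.9% of the first group, and Mir106a-363 gives 1.51% and 0.582%.

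Of the 8 other miRNA genes linked to E2F or MYC (Mir17hg with Mir15b and Mir16-2 of the Smc4 locus), 7 were detected and 0 were past 2-fold in either direction. Of all 358 detected genes, 8.66% were past 2-fold and higher in replicate 1 and 9.22% past 2-fold and lower. Mir17 and Mir20a stood at log2 ratios of 0.59 and 0.58, Mir18 at 0.19, Mir16-2 at 0.18, Mir15b at -0.03, Mir19b-1 at -0.86 from 11 and 20 counts, and Mir92-1 at -0.95. Mir19a, not detected, had 3 and 2 counts. Their median was 0.18, against 0.78 for the detected members and 0.06 for all detected genes. On the X chromosome, 32 of 136 other miRNA genes were detected. Their median log2 ratio was 0.18. Of these 32, 4 were past 2-fold and higher in replicate 1 and 1 lower, against 8.66% and 9.22% of all detected genes. Of 92 other miRNA genes of chromosome 5, 9 were detected, with a median of -0.39 and a median level of 15.1 CPM.

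The genes nearest to each cluster's leading member in level over the 2 libraries were found by distance in log2(CPM + 1). For Mir93 the nearest were Mir17 (distance 0.14), Mir7b (0.16) and Mir27b (0.39), at 4976, 4821 and 4757 CPM in replicate 1 and 2446, 2355 and 2948 CPM in replicate 2. For Mir20b they were its neighbour Mir106a (0.26), Mir410 (0.59) and Mir218-2 (0.67). With 2 libraries such nearness describes levels and does not show shared regulation.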

How the data were processed

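Small RNA libraries of female adrenal gland were sequenced, with a size range below 30 given in the labels without a unit. Each deposited table holds raw, whole-number counts by miRNA gene, not normalized, and its text file names build mm10 and GENCODE M21. Aligner, counter and trimming: not given in the sources used here. Headers are lacking. Of the 3 count columns, the one with most counts was taken as own strand. The members had the same counts in the column without strand and 0 on the opposite strand. The 4 summary lines stayed out of the totals. Counts are per hairpin, so the arms are not told apart.

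From these counts, CPM, shares and ratios were computed. Log2 ratios used TMM factors from edgeR over genes with at least 10 counts in each library, and a prior count of 0.5. No test across conditions was possible with 1 group. The members and lists were chosen with earlier results of these data known. All 9 members and the Mir17hg hairpins were named, with the 3 genes nearest to each leading member. On simulated counts of 358 detected genes, with counting noise only and known scaling, 96.6% of the counting intervals held the true ratio. This checks the arithmetic of the interval and covers neither the estimated scaling nor the spread between samples. Alternatives were the column without strand, other count minimums (1 and 100), library totals, DESeq2 size factors, a prior count of 5, thinning, hairpins with copies left out, Mir122 left out, and each replicate left out. Scaling ran in edgeR 4.0.16 and DESeq2 1.42.0 under R 4.3.3. All else ran in Python 3.11.15 with scipy 1.17.1, pandas 2.3.3 and numpy 2.4.6, and figures in matplotlib 3.10.9.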

Additional observations from a re-analysis of the deposited data

How the results depend on the processing

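No value past 2-fold changed sign under the settings run, but the changes of scaling were too small to turn such a value. Within a library the strand column could not change ratios or shares among the members, whose counts are the same in both columns. It did change their log2 ratios between libraries, through the library factors. The log2 ratio of Mir106b-25 over Mir106a-363, 5.01, became 5.51 without hairpins whose mature sequence has a copy, 5.52 without Mir18b, Mir19b-2 and Mir92-2, 6.01 per hairpin and 6.15 for the leading members, and lay between 4.73 and 5.29 with either library alone. The log2 ratio between libraries of Mir106b-25, 0.75, became 0.72 without strand, 0.69 with DESeq2 size factors and 1.18 under library totals. That of Mir106a-363, 1.30, became 1.73 under library totals and 1.81 without the members that have a copy, and 1.79 with Mir18b also left out. Under library totals the median of all genes was 0.49, against 0.06, and 79 genes were past 2-fold and higher in replicate 1 and 19 lower, against 31 and 33. The members past 2-fold numbered 4 there and 1 with a minimum of 100 counts, which Mir106a did not pass in replicate 2. At that minimum 5 members were left, and 8.13% of 246 genes were higher in replicate 1 and 7.32% lower. The difference between the clusters, -0.56, became -1.07 without the members that have a copy, -1.04 with Mir18b also left out, and -1.30 for Mir93 and Mir20b, the leading members by mean CPM. With each library's own leading member, Mir92-2 in replicate 2, it was -0.51 (chosen after seeing the data). The share of Mir106a-363 in the miR-25 seed group, 3.51%, was 1.13% without Mir92-2. With either library alone, Mir106b-25 lay between 3470 and 7853 CPM and Mir106a-363 between 88.6 and 295.0 CPM, their shares of the miR-17 seed group between 46.9% and 49.8% and between 0.582% and 1.51%, and those of the miR-25 seed group between 17.8% and 34.1% and between 2.77% and 4.26%. No paired analysis was possible because the series has 1 group. Mir18b and Mir19b-2 had 0 counts in replicate 2, the deeper library, and the cause was not tested.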
